A study of Mus musculus with 10 samples.

Results

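H3K27me3 at CpG-island promoters of WT erythroblasts was described from 1755 peaks, 39.1% of the 4490 H3K27me3 peaks called in WT CD71+Ter119+ cells and part of 50907 peaks in the 6 ChIP-seq peak lists of the series. A peak was chosen when it met the window of 1 kb upstream or downstream of a protein-coding transcription start site (TSS). The 1 kb centred on its summit also had to reach 50% GC, with a CpG ratio, the observed number of CpG over that expected from C and G, of 0.6 or more. The members were thus selected on their called enrichment, their place and their base composition, and these values are given below as a description without a test. The other peaks of the same list were 486 promoter peaks that missed a composition limit (CpG-poor promoter peaks), 380 peaks away from a TSS that met both limits, and 1869 CpG-poor peaks away from a TSS.

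The cells were fetal liver cells of e14.5 C57Bl/6 embryos, WT or Mtf2-null (Pcl2 -/-), sorted as CD71+Ter119-/lo cells, here called pro-erythroblasts, or as CD71+Ter119+ cells, here called erythroblasts (Ter119high in the labels). Mtf2 loss was constitutive, in mice that came from gene-targeted ES cells aggregated with CD1 blastocysts to form chimeras, and the loss was not limited to the erythroid lineage. H3K27me3 was profiled in both fractions of both genotypes and Mtf2 in both WT fractions, from 500000 cells per sample, and the IgG library that served each call matched it in fraction and genotype, so that WT H3K27me3 and Mtf2 of a fraction share one. There was 1 library per condition here, so no spread between replicates, SD or test across replicates could be given. The methods state replicates of 2, and whether these were pooled is not said. The opening of the series design text names H3K4me3, while its later lines and the sample labels name H3K27me3, and the libraries were read as H3K27me3. In bulk ChIP, fewer cells that carry a mark and less mark per cell cannot be told apart.

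H3K27me3 is written by Polycomb repressive complex 2 (PRC2), whose catalytic subunit is Ezh1 or Ezh2 together with Eed and Suz12. Mtf2 is an accessory subunit of PRC2 that binds unmethylated CpG-rich DNA. CpG islands are stretches in which CpG dinucleotides have not been depleted, they hold the start sites of most housekeeping genes and of many developmental regulators, and in vertebrates the islands of silent developmental regulators are the typical place of PRC2 and its mark. Ter119 appears and CD71, the transferrin receptor, falls as erythroid precursors mature, while chromatin condenses.

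The sequences below show stretches of members and of 1 promoter peak just outside the limit. The composition rule reads 1 kb, so a single stretch inside a member may be rich or poor in CpG. Each is a window of 200 bases of NCBIM37, the assembly of mm9, on the plus strand, inside the peak and clear of every annotated exon, in lower case with each CpG in capitals. The first 8 are the peak of highest fold enrichment (Gdf11, a Tgf-beta family ligand, chr10:128328775-128328974), the peak of highest score (Unc45b, a myosin chaperone of striated muscle, chr11:82744644-82744843), the member with the most CpG (Nfix, a nuclear factor I transcription factor, chr8:87323697-87323896), and the peaks of Hoxd13 (chr2:74506167-74506366), Wnt3a (chr11:59104255-59104454), Gata2 (chr6:88147171-88147370), the PRC1 subunit Bmi1 (chr2:18599097-18599296) and Ank1 (chr8:24085116-24085315), whose product ankyrin anchors the red cell membrane skeleton.
Gdf11: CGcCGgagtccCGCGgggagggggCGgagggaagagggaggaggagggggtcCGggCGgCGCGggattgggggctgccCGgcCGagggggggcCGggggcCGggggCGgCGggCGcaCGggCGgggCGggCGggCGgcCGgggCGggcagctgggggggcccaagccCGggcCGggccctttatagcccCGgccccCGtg
Unc45b: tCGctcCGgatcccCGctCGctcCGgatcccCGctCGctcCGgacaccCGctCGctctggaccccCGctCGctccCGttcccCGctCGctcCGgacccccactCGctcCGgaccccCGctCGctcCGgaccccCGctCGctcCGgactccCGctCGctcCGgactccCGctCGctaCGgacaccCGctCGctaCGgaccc
Nfix: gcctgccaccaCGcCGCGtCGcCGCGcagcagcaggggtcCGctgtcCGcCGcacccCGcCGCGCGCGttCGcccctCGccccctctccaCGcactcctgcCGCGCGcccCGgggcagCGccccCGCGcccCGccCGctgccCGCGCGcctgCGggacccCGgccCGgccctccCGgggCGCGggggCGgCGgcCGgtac
Hoxd13: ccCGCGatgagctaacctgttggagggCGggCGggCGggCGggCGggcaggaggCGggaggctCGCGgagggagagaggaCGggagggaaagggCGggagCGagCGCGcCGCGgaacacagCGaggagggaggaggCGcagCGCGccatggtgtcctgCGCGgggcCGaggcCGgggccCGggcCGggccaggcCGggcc
Wnt3a: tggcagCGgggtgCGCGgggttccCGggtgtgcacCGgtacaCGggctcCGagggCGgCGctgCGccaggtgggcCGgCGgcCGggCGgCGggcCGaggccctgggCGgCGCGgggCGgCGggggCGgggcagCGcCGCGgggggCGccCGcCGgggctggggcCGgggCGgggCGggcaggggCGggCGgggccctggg
Gata2: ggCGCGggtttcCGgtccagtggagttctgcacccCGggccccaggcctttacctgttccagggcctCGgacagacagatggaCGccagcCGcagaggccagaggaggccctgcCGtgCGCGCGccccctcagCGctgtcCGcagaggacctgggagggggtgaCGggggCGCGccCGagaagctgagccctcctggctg
Bmi1: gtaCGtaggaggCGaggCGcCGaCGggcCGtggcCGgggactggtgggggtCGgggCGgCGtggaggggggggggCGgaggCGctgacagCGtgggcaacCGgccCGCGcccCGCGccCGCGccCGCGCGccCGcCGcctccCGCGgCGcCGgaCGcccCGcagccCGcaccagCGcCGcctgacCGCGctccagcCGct
Ank1: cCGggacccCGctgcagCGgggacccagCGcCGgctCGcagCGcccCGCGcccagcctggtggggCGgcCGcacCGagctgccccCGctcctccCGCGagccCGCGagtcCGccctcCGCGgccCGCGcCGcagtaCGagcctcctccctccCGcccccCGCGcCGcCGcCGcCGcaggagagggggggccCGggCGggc

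The Gdf11 window held 27 CpG and the Nfix window 38, while the Gata2 window, the sparsest of these 8, held 17. The Unc45b window differed in kind from the others. It is built from near copies of one short unit with CpG at fixed spacing, its 33 CpG exceed the number its base composition gives (ratio 1.36), and the peak lay in an intron with its summit 2283 bp downstream of the nearest TSS. That peak had a score of 3016, where the score is −10 log10 of the peak caller's p, from 517 tags, while the member of next highest score, at the ubiquitin ligase gene March9, had 1105 from 214 tags. Its density was 125 tags per kb, the highest of the members, whose median was 40.9.

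For comparison, 4 further windows were read. Those of Lhx3 (chr2:26058962-26059161), a LIM-homeobox gene, and Wnt1 (chr15:98622419-98622618) are CpG-poor stretches of members, chosen after their values were seen. The third is from the member of lowest fold enrichment, at the transporter gene Abca5 (chr11:110199031-110199230), and the last from the promoter peak nearest below the CpG ratio limit, at the homeobox gene Dlx4 (chr11:95006167-95006366).
Lhx3: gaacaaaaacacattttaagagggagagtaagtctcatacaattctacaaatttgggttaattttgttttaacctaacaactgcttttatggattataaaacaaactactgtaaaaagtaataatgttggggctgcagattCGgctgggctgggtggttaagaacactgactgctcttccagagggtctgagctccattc
Wnt1: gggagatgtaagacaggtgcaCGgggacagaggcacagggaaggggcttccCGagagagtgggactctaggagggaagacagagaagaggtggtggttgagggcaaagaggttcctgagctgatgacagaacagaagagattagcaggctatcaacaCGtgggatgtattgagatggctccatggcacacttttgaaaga
Abca5: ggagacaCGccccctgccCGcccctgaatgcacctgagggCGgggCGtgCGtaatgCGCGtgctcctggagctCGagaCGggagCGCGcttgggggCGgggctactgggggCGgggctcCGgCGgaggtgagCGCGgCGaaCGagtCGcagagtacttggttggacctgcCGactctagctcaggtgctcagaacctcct
Dlx4: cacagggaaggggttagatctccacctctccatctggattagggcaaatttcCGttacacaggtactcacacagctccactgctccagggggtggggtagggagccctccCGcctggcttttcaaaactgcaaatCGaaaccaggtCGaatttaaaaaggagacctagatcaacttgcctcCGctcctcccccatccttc

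The Lhx3 window held 1 CpG and the Wnt1 window 3, although both peaks met the limits over 1 kb, with folds of 8.98 and 7.86. The Abca5 window held 21 CpG, and its peak had a fold of 3.85. The Dlx4 peak stood at a ratio of 0.5999 against the limit of 0.6, with 39 tags, and a second Dlx4 peak with its summit at -17 bp from the start site was a member. The members just inside the ratio limit were the peaks of the predicted gene Gm10837 (0.6003), of the chemokine receptor gene Ccr10 (0.6011) and of the natriuretic peptide receptor gene Npr2 (0.6012). Those just outside were the peaks of Dlx4 (0.5999), Lrrc3 (0.5998) and the homeobox gene Mkx (0.5995). At the GC limit the nearest members were the peaks of the B-cell factor Ebf1 (50.5%), the Polycomb group gene Sfmbt2 (51.0%) and Ttbk1 (51.4%), and the nearest peaks outside were those of Fdx1 (49.8%), the protocadherin gene Pcdh7 (49.8%) and Dab2 (49.3%). The CpG ratio did most of the sorting. Of the 486 CpG-poor promoter peaks, 341 missed the ratio alone, 9 missed the GC limit alone and 136 missed both.

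The members had medians well above the limits on which they were selected. The lower quartile of their CpG ratio, 0.734, was closer to the limit of 0.6. Their GC content ran from 50.5% to 81.6% with a median of 67.8%, and their CpG ratio from 0.60 to 1.3 with a median of 0.819. The 1 kb window held a median of 92 CpG, against 32.5 at CpG-poor promoter peaks. A run of 200-base windows that met both limits lay under the summit of 99.6% of members, with a median length of 1430 bp, and a median of 84.0% of the peak lay inside it. The peaks and these islands were thus of like length, the median peak being 1423 bp, although peak length followed island length only weakly from one member to the next (Spearman rank correlation 0.263 over the 1755 members, all from 1 library).

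**Figure D1:**
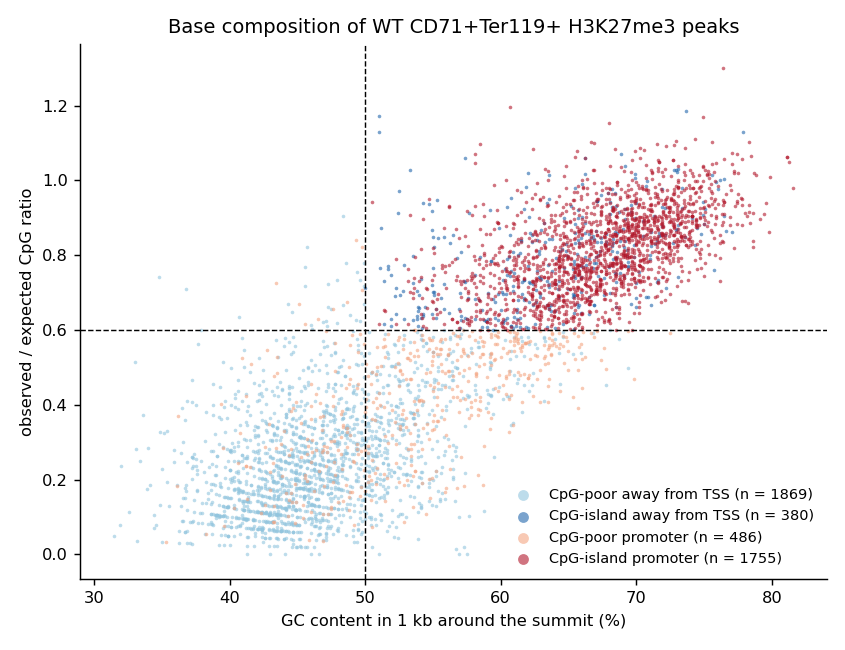
GC content (horizontal, percent) against the observed over expected CpG ratio (vertical) in the 1 kb around the summit of each of the 4490 WT CD71+Ter119+ H3K27me3 peaks, 1 point per peak, coloured by class; dashed lines mark the limits of 50% and 0.6. The 1755 CpG-island promoter peaks fill the upper right corner around medians of 67.8% and 0.819, while most of the 1869 CpG-poor peaks away from a TSS lie at the lower left.

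CpG-island promoter peaks held much of the called H3K27me3 signal. They covered 2.69 Mb and took 120092 tags, 54.5% of the tags in all WT erythroblast peaks and 0.400% of the unique tags of the library. Fold enrichment over IgG ran from 3.85 to 25.7 with a median of 8.98, tags from 21 to 517 with a median of 59, and the score from 50.1 to 3016 with a median of 109. A score of at least 100 was reached by 967 members (55.1%), against 21.0% of CpG-poor promoter peaks, 42.4% of CpG-island peaks away from a TSS and 5.03% of CpG-poor peaks away from a TSS. Members were 41 of the 50 highest-scoring peaks of the list and 399 of the 500 highest. By fold they stood out less, with 46 of the 100 peaks of highest fold, near the 39.1% of peaks that members made up. The median FDR of the members was 4.35%, and 959 members had an FDR of at most 5%.

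The highest folds were at Gdf11 (25.7, 97 tags), the receptor tyrosine kinase genes Tyro3 (24.6, 139 tags) and Ltk (22.6, 167 tags), the dermatan sulfate epimerase gene Dse (23.6, 64 tags) and the small GTPase gene Rab15 (21.4, 133 tags). High scores went with long peaks and many tags. After Unc45b and March9, the cytokine gene Clcf1 had the next score (1047, 249 tags), and after Unc45b the most tags were at Tbx2, a T-box factor of limb and heart (266 tags), and Tmem200b (259 tags). The longest members were at Scrt1, a neural zinc finger repressor (4975 bp), Comp, a cartilage matrix protein (4927 bp), and Tbx2 (4806 bp). The member of median fold was at the chemokine-like gene Fam19a2, with 47 tags. Length and tags were nearly one measure (rank correlation 0.954 over members).

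CpG number went with the breadth of a member and hardly with its fold. In quartiles of CpG number the median tags were 43, 56, 66 and 78, and the median length rose from 1197 to 1650 bp, while the median fold was 8.65, 9.24, 9.01 and 9.41. Over all members the rank correlation of CpG number with tags was 0.420, that of GC content with fold 0.125, and that of the CpG ratio with fold 0.0445. These are descriptions across peaks that share 1 ChIP and 1 IgG library.

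The summits lay mostly just inside the gene. Relative to the nearest TSS, 1218 summits (69.4%) were downstream, 533 upstream and 4 at the TSS, with a median position of 111 bp downstream and a median distance of 186 bp. Of all members, 1637 (93.3%) had the summit within 1 kb of a TSS and 1556 (88.7%) covered one. CpG-poor promoter peaks were more spread, with 53.1% of summits downstream, a median distance of 606.5 bp and 44.9% of peaks covering a TSS. The composition rule was centred on the summit, and CpG become sparser away from the TSS. A summit far from the TSS is thus more likely to miss the limits, and this contrast can follow from the rule. Member summits fell in a 5' UTR in 588 cases, in a coding exon in 462, in an intron in 393, outside genes in 288, in an exon of a noncoding transcript in 21 and in a 3' UTR in 3. Among the 1546 members that covered their nearest TSS, the peak reached a median of 590 bp upstream and 833 bp downstream, and 1080 (69.9%) reached farther downstream.

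**Figure D2:**
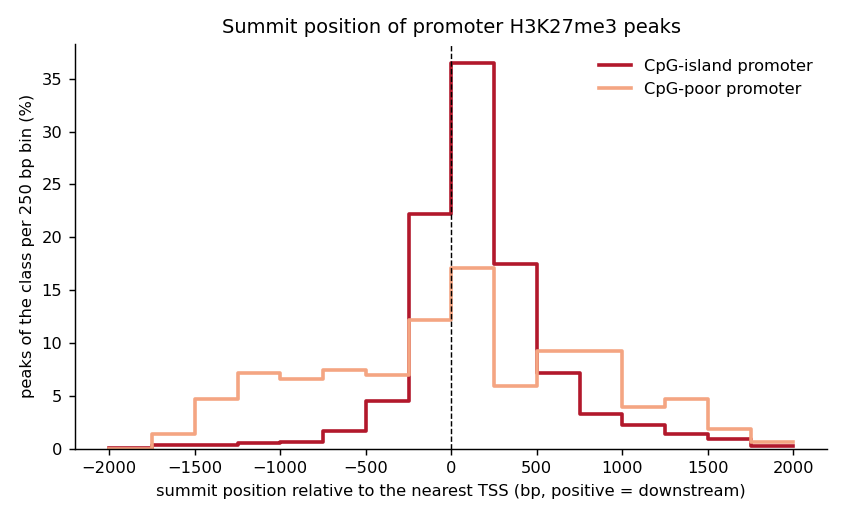
Position of peak summits relative to the nearest protein-coding TSS (horizontal, bp, downstream positive) as the percent of peaks of each class per 250 bp bin (vertical), for CpG-island promoter and CpG-poor promoter peaks. CpG-island promoter summits gather in the 250 bp downstream of the TSS, which hold 36.5% of them, while CpG-poor promoter summits spread over the window. The classes were split by composition around the summit, from which this contrast can follow.

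In all, 1755 protein-coding genes had a member at a TSS, by coincidence the number of members, which is 7.90% of the 22225 genes in the annotation. One gene was in the window of 1656 members, 97 members had 2 genes and 2 had 3, and at 94 members start sites of different genes lay on both strands. At 92 genes there were 2 or more members, and 9 genes had 3, among them the Notch ligand gene Jag1, the orphan receptor genes Nr2e1 and Nr4a3 and Tcfap2a, the AP-2 alpha factor of neural crest. Of all members, 354 (20.2%) had another one within 50 kb. The longest run was the 9 members of the Hoxd cluster and Evx2 on chromosome 2 (74496473 to 74601818), followed by 5 on chromosome 14 (2 at Zic2 and 1 each at Zic5, Gm5089 and Gm10837) and 5 in the Hoxa cluster on chromosome 6.

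Most CpG islands at start sites carried no called peak. A CpG-island-like TSS, meeting the same limits in its own 1 kb, was present at 10907 genes (49.1%), and 1645 of these (15.1%) had a member. To give each gene 1 window, its most upstream CpG-island-like TSS was used. The share of genes with a member rose with the number of CpG in that window, from 5.99% (95% Wilson interval 5.10 to 7.02) of the 2355 genes with 37 to 57 CpG, through 9.94%, 13.6% and 18.4%, to 28.3% (26.4 to 30.3) of the 2120 genes with 96 to 176 CpG. Since CpG composition was part of the rule for members, this is a description. Counting every WT erythroblast peak at a TSS, whatever its composition, the shares from the fewest to the most CpG were 7.77%, 11.98%, 14.8%, 19.9% and 28.9%. All intervals given here cover counting error over genes or peaks only, and not the spread between libraries. PCR-amplified tags behind the peak calls are also not independent molecules. The median window held 86 CpG at genes with a member and 70 at the 9106 CpG-island-like genes with no WT erythroblast peak at a TSS.

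The profile of the reference sequence around the TSS gave the same picture base by base, counting every annotated start. In the first 100 bp downstream, member TSS (3399) had 11.6 CpG per 100 bp, other CpG-island-like TSS without a peak (23800) had 10.1, and TSS that were not CpG-island-like (41559) had 2.52. Between 500 and 600 bp downstream the values were 6.99, 4.58 and 1.56, so the difference in CpG per 100 bp between marked and unmarked islands was larger there than at the start site. This did not hold upstream, where the values from -600 to -500 bp were 4.52, 3.56 and 1.36. The strand asymmetry of G over C, (G − C)/(G + C), was 0.0403 in the first 100 bp downstream of member TSS and 0.0931 at the unmarked CpG-island-like TSS. Starts of one gene share bases, and these means carry no interval.

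**Figure D3:**
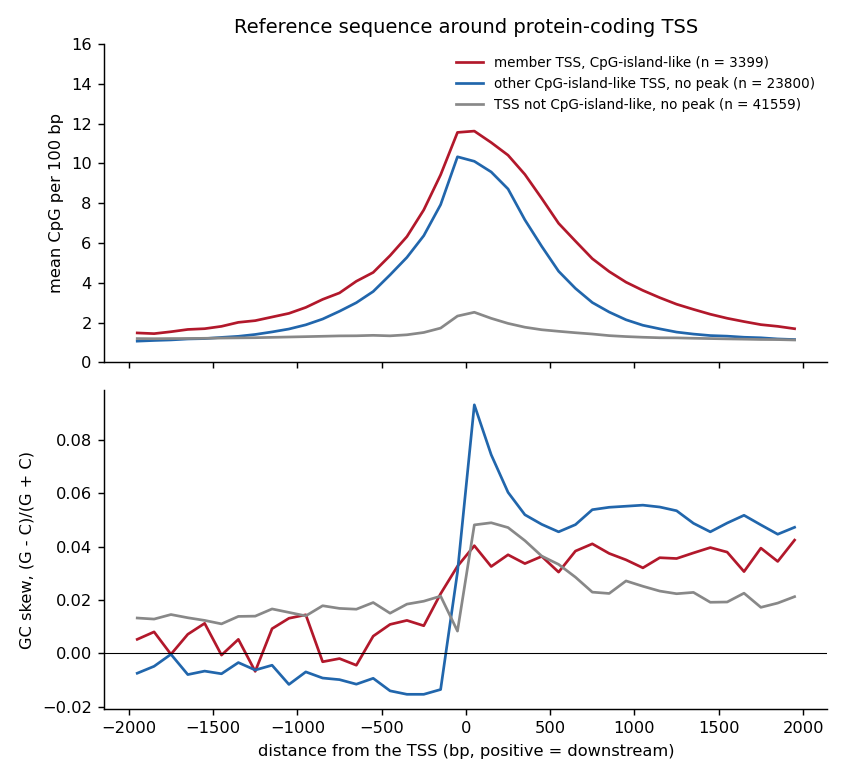
Mean number of CpG per 100 bp (upper panel) and GC skew, (G − C)/(G + C) (lower panel), of the NCBIM37 sequence in 100 bp bins from 2 kb upstream to 2 kb downstream of the TSS (horizontal, bp), for TSS with a member, CpG-island-like TSS without a peak and other TSS without a peak. Members have the broadest CpG profile, with 6.99 CpG per 100 bp at 500 to 600 bp downstream against 4.58, and a lower skew just downstream of the TSS, 0.0403 against 0.0931.

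Short sequence motifs were counted in the 300 bases from 250 bp upstream of the TSS, on both strands, with the same single TSS per gene. The ETS motif CCGGAAGT was in 0.912% (0.553 to 1.499) of the 1645 genes with a member and in 9.67% (9.08 to 10.3) of the 9106 unmarked CpG-island-like genes. YY1 sites, GCCATNTT, were in 2.37% and 9.43%, NRF1 sites, CGCATGCG, in 1.52% and 4.59%, and cyclic AMP response elements, TGACGTCA, in 2.13% and 3.96%. These are motifs of factors common at active housekeeping promoters. CCAAT was in 28.4% and 38.4% and the E-box CACGTG in 7.60% and 11.8%.

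The reverse held for CpG-dense and purine letters. CGCGCG was in 37.3% of genes with a member and 27.6% of unmarked ones, the GC box GGGCGG in 76.7% and 71.5%, and GAGAGAG in 12.6% and 8.53%. The letters TATAAA (4.86% and 5.71%), the E2F motifs TTTCGCGC or TTTGGCGC (1.16% and 1.82%) and the GATA motifs AGATAA or TGATAA (6.69% and 7.57%) had overlapping intervals in both sets. Among all 69965 TSS, counted by position and strand, CCGGAAGT was in 4.57% and CGCGCG in 13.3% of windows.

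The ETS and YY1 differences were present at every level of CpG number. Across the 5 groups of CpG number, CCGGAAGT was in between 0% and 1.42% of genes with a member (0 of 287 in the middle group, which allows up to 1.05%) and in between 6.63% and 11.6% of unmarked genes. GCCATNTT was in between 0.735% and 3.83% against between 8.64% and 9.94%. CGCGCG followed CpG number itself. From the fewest to the most CpG it was in 11.3%, 17.7%, 18.8%, 39.2% and 57.7% of genes with a member. In unmarked genes the shares were 12.9%, 19.4%, 25.1%, 35.7% and 52.6%. Genes with a member thus had the lower share in the groups with fewer CpG and the higher share in those with more. CCAAT was lower at genes with a member in every group, but hardly so with the fewest CpG (42.6% against 44.5%). A motif match is a description of letters and not of binding.

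The genes with a member were read by role, in lists chosen with earlier results of these data known, so the shares are given beside the 7.90% of all genes and not tested. Among genes with a CpG-island-like TSS the share was 15.1%, the closer comparison for lists where most genes have such a TSS. A gene without a member may still have a CpG-poor H3K27me3 peak at its TSS. The counts take members of every FDR, up to 33.9%. Among transcription factors that lay out the body plan, the shares ran from 35.3% of tissue bHLH genes to 75.0% of Zic and Gli genes. Of the Hox genes, the homeobox factors of the body axis, 17 of 39 had a member. Hoxb9 had the highest fold (14.6, 33 tags, FDR 12.8%) and Hoxd8 the most tags (139, fold 11.6, FDR 2.05%). LIM-homeobox genes, which specify neurons and limb, had a member at 8 of 12, led by Lhx2 (14.6, 147 tags) and Lhx8 (12.4, 65 tags). A WT erythroblast peak of any composition was at a TSS of 11 of the 12. Pax genes had one at 5 of 9, Pax2 of the kidney highest (12.4, 99 tags). The other homeobox families had one at 43 of 67, with folds of 15.4 at Gbx1 and 14.6 at Tlx2, which had 235 tags.

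Forkhead genes had a member at 21 of 43, among them Foxa2 of endoderm (15.7, 35 tags, FDR 14.7%) and Foxd2 (12.6, 219 tags, FDR 3.23%). Sox genes had one at 8 of 18, including the neural factors Sox11 (16.8, 42 tags) and Sox2 (11.2, 53 tags), T-box genes at 8 of 16, including Tbx1 (18.5, 121 tags), and Zic and Gli genes at 6 of 8, including Zic2 (14.1, 60 tags). Tissue bHLH genes had one at 12 of 34, such as Tcf15 of the somites (16.8, 61 tags), Hand2 of the heart (15.7, 76 tags) and Neurog2 of neurons (15.4, 93 tags). Of the Hes, Hey and Id genes, which antagonise bHLH factors, 6 of 13 had one, led by the Notch target Hes5 (17.2, 115 tags).

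In the Gata family the members were at Gata2, the factor of stem cells and early progenitors (fold 8.99, 114 tags, FDR 3.23%), and at 2 endoderm and heart factors. These were Gata4 (10.0, 39 tags, FDR 12.1%) and Gata5 (7.60, 35 tags, FDR 24.2%). Gata2 had 2 members, and the summit of the stronger lay in an intron at -1387 bp from the nearest TSS. Gata1, the factor of the erythroid programme, had no WT erythroblast H3K27me3 peak of any composition at a TSS. Of the 6 Gata genes 5 had such a peak, so Gata3 and Gata6 had one without having a member. Transcription factors of other blood lineages had a member at 14 of 31, among them Tcf7 of T cells (14.6, 55 tags), Ikzf3 of lymphoid cells (13.2, 106 tags), Prdm16 of stem cells (11.3, 116 tags), Bcl11b of T cells (11.3, 32 tags), Ebf1 and Pax5 of B cells and Cebpa and Cebpb of myeloid cells. Of the 25 genes with a primer pair in the study, 23 had a CpG-island-like TSS. A member was at 4 of them: Cebpa (10.1, 79 tags), Gata2, the chemokine receptor gene Cxcr4 (7.86, 29 tags) and Fli1 (5.71, 76 tags), an ETS factor of megakaryocytes. All 4 had a CpG-island-like TSS, and 4 of 23 is near the 15.1% of all such genes. Myb, Stat5b, Tal1 and E2f2 were among the genes of this list without a member.

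Erythroid programme genes stood at the other end. Only Ank1 of 47 had a member (2.13%), although 22 of the 47 had a CpG-island-like TSS. Its peak had 154 tags at a fold of 7.94 with the summit at -66 bp from the nearest TSS. Of the 80 ribosomal protein genes, 39 proteasome genes and 36 respiratory chain complex I genes, 75, 33 and 32 had a CpG-island-like TSS, and none of them had a member. Counting every WT erythroblast peak at a TSS, 1 ribosomal protein gene had one. No expression was measured in these libraries.

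Signalling genes were read from ligand to effector. Wnt ligands had a member at 10 of 19, with Wnt6 (13.5, 51 tags), Wnt2b (11.98, 42 tags) and Wnt3a (11.8, 90 tags) highest, and the Frizzled receptors at 7 of 10, with Fzd8 (13.5, 64 tags) and Fzd2 (11.96, 70 tags). Secreted Wnt antagonists and R-spondins had one at 5 of 15, such as Sfrp1 (11.7, 69 tags). Of the intracellular Wnt genes, 5 of 14 had one, the feedback inhibitors Axin2 (8.59, 77 tags) and Nkd1 (10.3, 58 tags) and the HMG-box factors Tcf7, Tcf7l1 and Tcf7l2, while Ctnnb1, the gene of beta-catenin, had none.

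Bmp and Tgf-beta ligands had a member at 7 of 32, with Gdf11 at the highest fold and Inhbb, an activin subunit, with the most tags (155, fold 12.4). Bmp antagonists had one at 5 of 11, with Chrd at 16.8 and Nog at 8.56. Fgf ligands had one at 7 of 22, led by Fgf8 (19.5, 167 tags), and hedgehog pathway genes at Ihh and Smo of 7. The Notch pathway had a member at all 5 ligand genes (Dll1, Dll3, Dll4, Jag1 and Jag2) and none of its 4 receptor genes. Counting every WT erythroblast peak at a TSS, whatever its composition, the numbers were 11 of 22 Fgf, 5 of 7 hedgehog and 6 of 9 Notch genes. A Notch receptor gene thus had a CpG-poor promoter peak. Guidance molecules were marked in part, with 8 of 22 ephrin and Eph receptor genes (Epha7 20.1, Efnb2 18.5, Ephb3 18.01), 11 of 29 semaphorin and plexin genes and 4 of 16 genes of the netrin and Slit systems.

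Genes of excitable and adhesive cells were marked in part. Potassium channel genes had a member at 25 of 92 (Kcnk3 16.9, Kcng3 with 199 tags), sodium and calcium channels at 6 of 27, neurotransmitter receptors at 17 of 96 (Grik3 15.4) and cadherins and protocadherins at 8 of 59, among them Pcdh7 (14.4) and Cdh1 (5.13), the epithelial cadherin. Cyclin-dependent kinase inhibitor genes had one at Cdkn1c (143 tags, fold 5.92) and Cdkn2a (30 tags, fold 6.85) of 7. Polycomb and H3K27 demethylase genes had one at 5 of 30, among them the PRC1 subunit genes Bmi1 (16.3, 161 tags) and Pcgf2 (8.56). Of these 30 genes 27 had a CpG-island-like TSS, and 5 of 27 is near the 15.1% of all such genes.

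**Figure D4:**
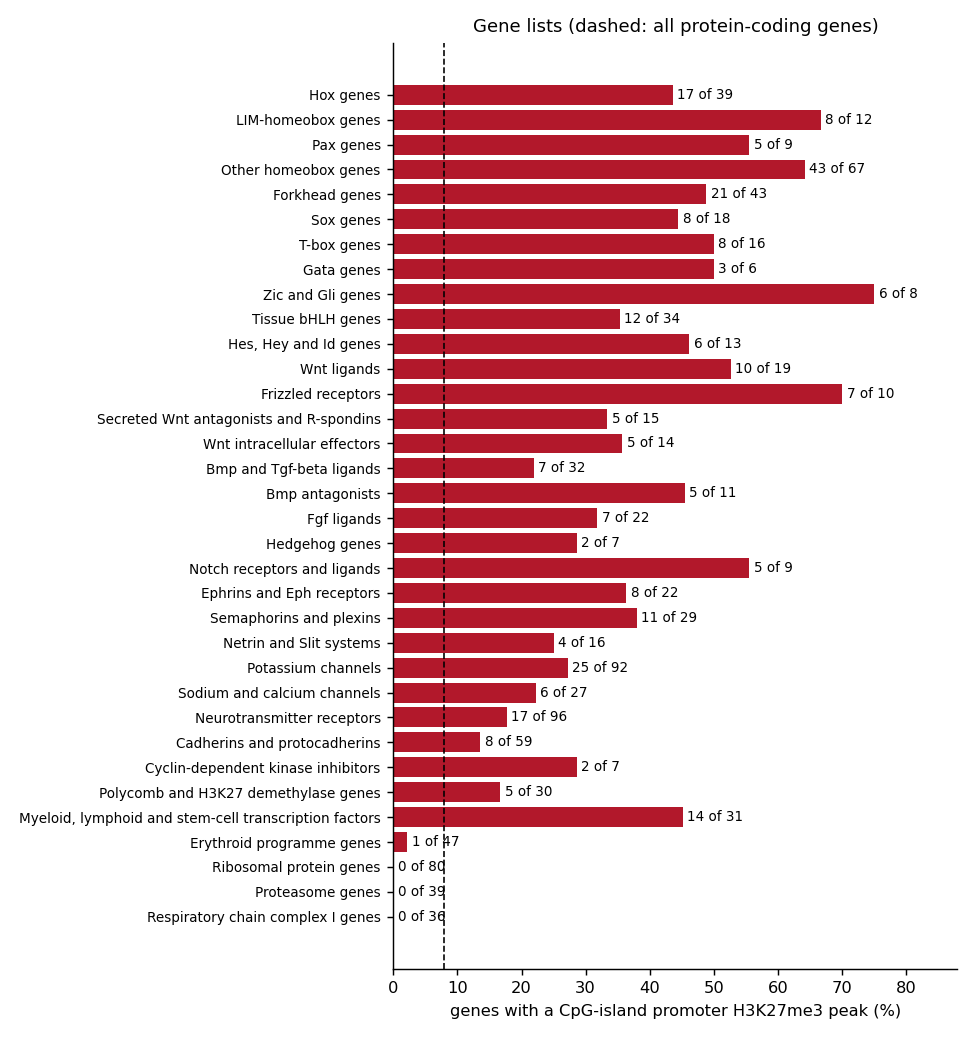
Share of the protein-coding genes of each list (horizontal, percent) with a CpG-island promoter H3K27me3 peak in WT CD71+Ter119+ cells, 1 bar per list with the counts beside it; the dashed line marks the 7.90% of all genes. Zic and Gli genes reach 75.0%, Frizzled receptors 70.0% and LIM-homeobox genes 66.7%, while the erythroid list has 1 of 47 and the 3 housekeeping lists have none. Among genes with a CpG-island-like TSS, 15.1% have such a peak.

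The X chromosome held few members. Of its 275 genes with a CpG-island-like TSS, 14 (5.09%, 3.06 to 8.36) had a member, against 15.3% (14.7 to 16.04) of 10632 on the autosomes, where single chromosomes ran from 11.9% to 18.7%. Among the X-linked genes with one was Fgf16 (39 tags, fold 6.62).

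Some members lay over RNA genes. A miRNA gene of the annotation overlapped 17 of the 1755 members and a lincRNA gene 111. The other peaks of the list were not counted in this way, so neither number is read as a trait of members. Mature sequences of 4 of these miRNA genes were matched in RefSeq (GRCm38.p6 table), and 1 arm of each is shown with the seed, bases 2 to 8, in capitals, because the peak overlaps the miRNA gene itself. Mir152 lies in Copz2 (32 tags, fold 6.54), Mir1247 beside Dio3, the thyroid hormone deiodinase gene (67 tags, fold 4.32), Mir574 in Fam114a1 (43 tags, fold 8.98) and Mir1199 at 2210011C24Rik (95 tags, fold 14.53). No seed was shared among them.
miR-152-3p: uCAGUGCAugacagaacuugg
miR-1247-5p: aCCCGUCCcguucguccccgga
miR-574-5p: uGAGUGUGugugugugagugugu
miR-1199-5p: uCUGAGUCccggucgcgcgg

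In the pro-erythroblast H3K27me3 list of the same genotype, 141 members (8.03%, 6.85 to 9.40) were overlapped by at least 1 base, against 6.30% of all 4490 peaks, so the share of members was near that of the whole list. CpG-poor promoter peaks had 8.85%, CpG-island peaks away from a TSS 9.21% and CpG-poor peaks away from a TSS 3.42%. Read from the other side, 150 of 4992 pro-erythroblast peaks (3.005%) overlapped a member, and by the same rule 94 of those 4992 peaks (1.88%) were CpG-island promoter peaks, against 39.1% in erythroblasts. The erythroblast library had 1.59 times the unique tags of the pro-erythroblast library (30054186 against 18945784), and the part of depth in these shares was not tested.

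Overlap was highest in the top quartile of score. It was 4.78%, 4.56% and 6.85% in the lower quartiles and 15.9% (12.8 to 19.7) in the highest. Median fold was 9.54 at overlapped members and 8.98 at the others. Overlapped members were longer than the others (median 1753 against 1400.5 bp), and by quartile of length the overlap was 4.1%, 5.01%, 7.52% and 15.5%. Their CpG number was alike (medians 91 and 92). The partner peaks were small, with a median of 17 tags, a range of 16 to 39 tags, a median length of 676 bp and a median FDR of 11.3%, and 1 of them reached a score of 100. A partner covered a median of 29.5% of the member, and in 57 of 152 pairs the summits were within 500 bases. The rank correlation of fold between the fractions was 0.0656 over the 152 pairs, which share members and libraries. The pairs leave out members without a called partner, and most partners lay near the calling threshold. The value therefore cannot say whether fold follows from one fraction to the other.

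**Figure D5:**
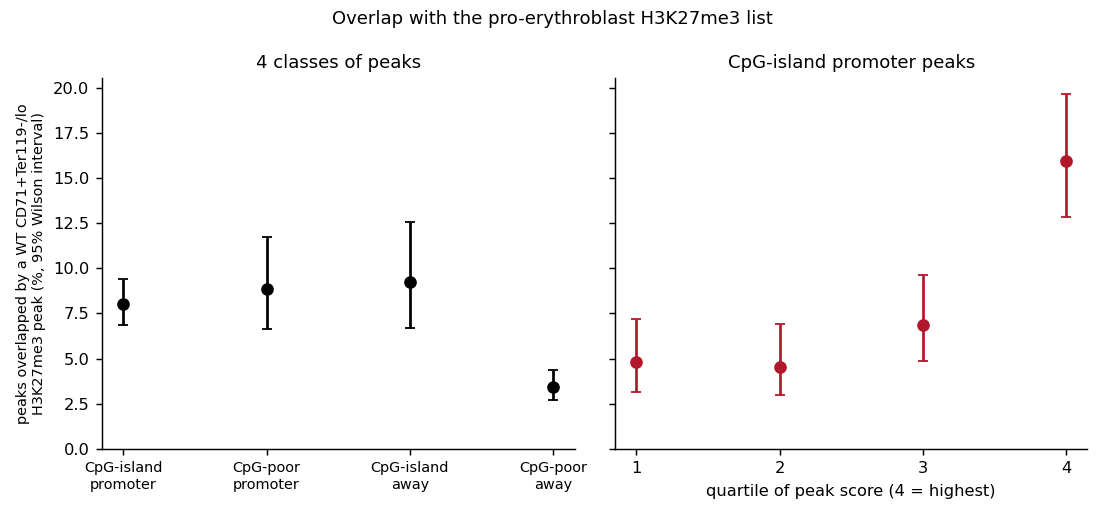
Percent of WT CD71+Ter119+ H3K27me3 peaks overlapped by a WT CD71+Ter119-/lo H3K27me3 peak (vertical), for the 4 classes of peaks (left) and for CpG-island promoter peaks by quartile of score (right); points are shares and bars 95% Wilson intervals, which cover counting error only. The 3 classes at promoters or CpG islands lie between 8.03% and 9.21%, and the highest quartile of score at 15.9%.

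The shared members included developmental genes of several lists. Gdf11 had 97 tags at a fold of 25.7 in erythroblasts and a partner of 16 tags at 7.31 in pro-erythroblasts. Hoxd13 had 62 tags at 10.3 and a partner of 17 tags at 7.31. Fgf8, Tbx2 and Ltk each met more than 1 pro-erythroblast peak, the strongest at Tbx2 with 28 tags and a score of 90.9. Shared members were also at Epb4.1l4b and Smagp, at Gata4 (39 and 18 tags), at 1 of the 3 members of Jag1 (24 and 17 tags), at Fzd2, and at Isl2 and Lhx8. Of the 10 Wnt ligands and 5 Polycomb genes with a member, 0 had a shared one, and with 8.03% of all members shared, 0 of so few says little.

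In Mtf2-null erythroblasts, 0 of 1755 members were overlapped by an H3K27me3 peak, which allows a share of up to 0.171%, against 0.624% of the whole WT list. The Mtf2-null list had 5791 peaks from 2.23 times the unique tags (67169672), 57 of them at a TSS, and by the same rule none was a CpG-island promoter peak. At those 57 peaks the median GC content was 41.8% and the median CpG ratio 0.158. The nearest Mtf2-null peak was a median of 307 kb from a member, 7 members had one within 5 kb, and the closest lay 708 bp away, at 1700025G04Rik. The 28 WT peaks that were overlapped were all CpG-poor peaks away from a TSS. This compares 1 library with 1 library, each called against its own IgG library, and a difference of libraries and a difference of genotypes cannot be told apart.

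In Mtf2-null pro-erythroblasts, 12 members (0.684%, 0.392 to 1.19) were overlapped, against 1.87% of the whole list. These were at Unc45b, at the transcription factor genes Hes5, Pou3f1 and Lbx1, at Itsn1, Plekhh1, Agap2, Nxph4, Igdcc3, Klhdc8a and B4galnt2, and at C77370, and their partners had 24 to 45 tags. Each partner had an FDR of 100%, the peak caller's estimate that as many peaks of that strength were found when ChIP and IgG were exchanged. Hes5 had 115 tags at a fold of 17.2 in WT erythroblasts, and its partner of 40 tags shared 42 bases with it.

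Mtf2 peaks met few members. In WT erythroblasts 1 member (0.0570%, 0.0101 to 0.322) was overlapped by an Mtf2 peak, against 1.34% of the whole list. It was the Nfix peak, with 141 tags at a fold of 8.10, and the Mtf2 peak had 16 tags at 7.64 with its summit 1528 bp from that of the member. In WT pro-erythroblasts 4 members (0.228%, 0.0887 to 0.585) were overlapped, against 1.89% of the whole list. They were at Bspry (Mtf2 peak of 28 tags, fold 15.1), Hapln4 (21 tags, 6.98), the class I histocompatibility gene H2-Q7 (52 tags, 7.79) and the heat shock genes Hspa1a and Hspa1l with Gm20481 (77 tags, 8.14), where the Mtf2 peak covered 82.3% of the member. At Hapln4 the summits were 4 bp apart. CpG-poor peaks away from a TSS were overlapped by Mtf2 peaks in 3.10% and 3.80% of cases in the 2 fractions. Of the Mtf2 peaks 0 of 5309 in erythroblasts and 19 of 28918 (0.0657%) in pro-erythroblasts were CpG-island promoter peaks by the same rule. The Mtf2 libraries had 15669899 unique tags of 39481374 in erythroblasts and 29009650 of 83941685 in pro-erythroblasts. The WT erythroblast H3K27me3 library had 30054186 unique tags of 36047115. Many Mtf2 tags were thus repeats, which limits the peaks that can be called, and their part in these shares was not tested.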

How the data were processed

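H3K27me3 and Mtf2 ChIP-seq of 6 conditions with 4 IgG control libraries was analysed, with 1 library per condition. The authors aligned reads to mm9 (Bowtie2 2.2.3), and their peak caller was MACS 1.3.7 with a p cutoff of 1e-05, per the file headers and the submitters' processing notes. The deposited tag count is the number of reads in a peak, not scaled for depth. The deposited score is −10 log10 of the authors' p, the deposited fold is their ratio of ChIP to local IgG background, and the deposited FDR is a percent. Depth ran from 15669899 to 67169672 unique tags per ChIP library and from 12345800 to 39667267 per IgG library, which limits the weakest peak that can be called in each.

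Members, gene lists and comparisons were chosen with earlier results of these data known. TSS came from GENCODE M1 on NCBIM37, with 22225 protein-coding symbols and 69963 distinct TSS. The CpG ratio is the number of CpG times the window length over the product of C and G. Islands were runs of 200-base windows in steps of 10, joined within 100 bases. Overlap meant 1 shared base. Intervals are 95% Wilson intervals, and the limit for a count of 0 is 3 counts. No test was run, because each condition had 1 library. Named were the 5 highest folds, the 3 highest scores, tag counts and lengths, the median and lowest fold, the 3 peaks on each side of each limit, up to 4 genes of highest fold per list with few others by tags or role, the members overlapped in another list (the 5 of highest fold where over 10, with further ones chosen after their values were seen), and genes with a primer pair. The comparison of CpG number, motifs and chromosomes per gene was chosen after seeing the data. Alternatives were other score, FDR, window and composition limits. Overlap and composition steps were tested on simulated data. Sequence was read with pysam 0.24.0, tables were handled in Python 3.11.15 with pandas 2.3.3 and numpy 2.4.6, rank correlations came from scipy 1.17.1, and plots from matplotlib 3.10.9.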

Additional observations from a re-analysis of the deposited data

How the results depend on the processing

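The number of members was 967 with a score of at least 100 and 959 with an FDR of at most 5%, and the number of genes with a member 994 and 986. Other TSS windows, the peak middle and stricter composition left both numbers within 1.5 times, as did the autosomes alone and coding transcripts alone for the number of members, for which alone they were run. The median fold lay between 8.98 and 10.3 over the score, FDR, stricter composition and 500-base settings. The share overlapped by the WT pro-erythroblast list was 0.969% when at least 50% of the member had to be covered, 11.2% with a peak within 1 kb and 0.103% among members and peaks with a score of at least 100. For the Mtf2-null pro-erythroblast list these were 0.0570%, 1.25% and 0%. For Mtf2 in erythroblasts the share was 0% with that coverage and 0% at a score of at least 100, and for Mtf2 in pro-erythroblasts 0.627% within 1 kb, 0.114% with that coverage and 0.103% at a score of at least 100, against 0.228%. A looser or stricter overlap changes these values by construction. For the Mtf2-null erythroblast list the share stayed between 0% and 0.0570%. No paired analysis was possible because each condition had 1 library and no result comes from a test, and for the same reason no replicate could be left out.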
